A study of Mus musculus with 12 samples.

Results

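The genes described here carry the steps that end a rod photoresponse and reset it through calcium. They are 10 genes chosen by name out of 53707 in the deposited table: Grk1, Rgs9, Rgs9bp, Gnb5, Rcvrn, Guca1a, Guca1b, Gucy2e, Gucy2f and Slc24a1. All 10 were among the 21061 genes tested. They were measured in retinal explants, whole retinas kept in culture, from wild-type C57BL/6J mice at 28 days of age. The explants were cultured for 48 hours with 5 mM or with 25 mM glucose, and the pigment epithelium had been removed at dissection. Each concentration had 3 biological replicates, and each of these was sequenced as 2 technical replicates, the first in batch 1 and the second in batch 2, giving 12 libraries. The labels do not tie a biological replicate to 1 animal, so p-values measure the spread between these replicates.

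When a rod absorbs light, transducin and phosphodiesterase lower cGMP and the cation channels close. Recovery needs the receptor kinase GRK1 (Grk1), which recoverin (Rcvrn) holds back at high calcium. It needs transducin to be switched off by the complex of RGS9, its membrane anchor R9AP (Rgs9bp) and the long form of G beta 5 (Gnb5). It also needs new cGMP from the retinal guanylate cyclases (Gucy2e and Gucy2f), which the calcium-binding activators GCAP1 (Guca1a) and GCAP2 (Guca1b) switch on as calcium falls. Calcium leaves the outer segment through the sodium, calcium and potassium exchanger NCKX1 (Slc24a1).

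All 10 genes had higher levels at 25 mM than at 5 mM glucose in every biological replicate, but by unequal amounts. The kinase, the 3 genes of the RGS9 complex, both cyclases and the exchanger rose by 2.33 to 8.77-fold. The 3 calcium sensor genes, Rcvrn, Guca1a and Guca1b, had ratios of 1.74, 1.72 and 1.52, and none of them passed an FDR of 0.05. Thus 7 of the 10 passed an FDR under 0.05 in the edgeR quasi-likelihood test, against 1.47% of all tested genes called higher. The members' median log2 fold change was 1.93, and that of all genes was -0.01. At a fold change over 2 with an FDR under 0.01, 0 members were called and 0.0% of all genes, since the lowest FDR of any gene was 0.0217. At an unadjusted p under 0.05, 8 members were higher, against 13.2% of all genes, and 7 had a log2 fold change over 1, against 8.1%. DESeq2 called 8 members at an FDR under 0.05 (7.03% of all genes higher) and 7 under the stricter pair of thresholds (2.98%). The replicates of the 2 concentrations did not overlap for 10 of 10 members, against 16.0% of genes that were higher without overlap. With 3 replicates against 3, the exact permutation test cannot give a two-sided p below 0.1, and each member had that value.

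The calls at this FDR, of members and of all genes alike, depended on single replicates and libraries. With 25 mM replicate 3 left out 7 members passed (1.32% of genes higher), and with 5 mM replicate 1 left out 8 did (11.7%). Removal of any of the other 4 replicates (replicates 2 and 3 at 5 mM, replicates 1 and 2 at 25 mM) left 0 members and 0 of all genes tested at an FDR under 0.05, while the members' median log2 fold change stayed between 1.72 and 2.00. All fold changes of the 10 genes stayed above 0 under the 22 alternatives tried.

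**Figure D1:**
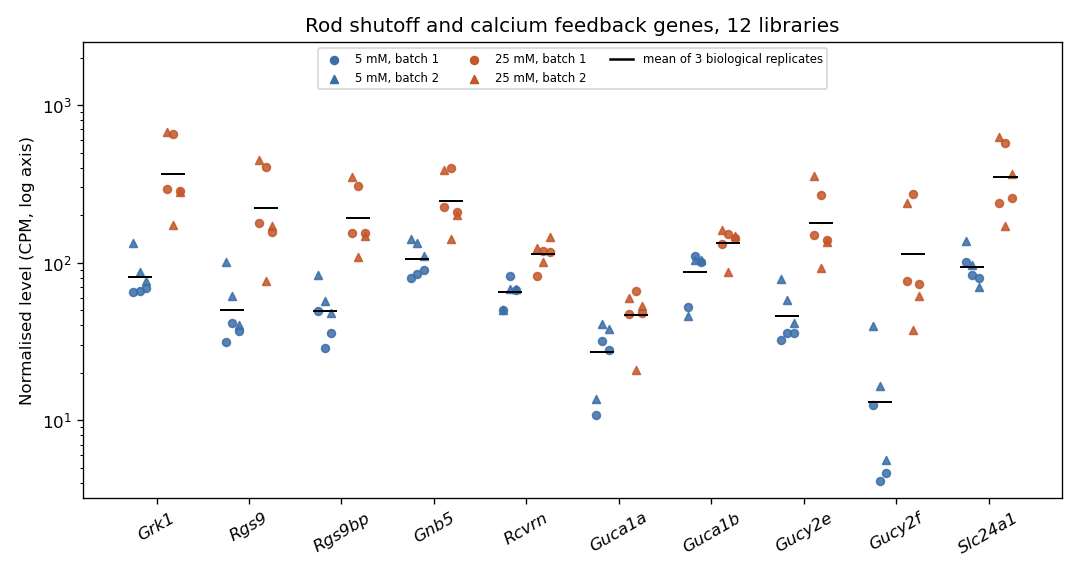
Normalised level of each gene in CPM (log axis) in the 12 libraries, with 5 mM glucose in blue, 25 mM in orange, circles for batch 1, triangles for batch 2 and a line at the mean of 3 biological replicates. Gucy2f spans the widest range, from 4.11 to 273.2 CPM, while Rcvrn, Guca1a and Guca1b sit closer together.

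Library totals lay between 17998905 and 36692484 estimated counts at 5 mM and between 14815285 and 23129541 at 25 mM. Mitochondrial genes took 5.91% to 11.8% of a library at 5 mM and 7.94% to 15.4% at 25 mM. The technical replicates of 2 samples stood apart for the members. In 25 mM replicate 1 the batch 2 library was higher for 10 of 10 members, by a median of 2.29 times. In 25 mM replicate 2 the batch 1 library was higher for 10 of 10, by a median of 3.05 times and up to 7.36 times. The latter library had the smallest total and the highest mitochondrial share of the 12, at 14815285 counts and 15.4%. Dropping it together with the second library of 25 mM replicate 1 gave a median log2 fold change of 1.43, and 0 members and 0 of 20937 genes had an FDR under 0.05. Dropping it together with the second library of 5 mM replicate 1 left 0 members and 2 of 20830 genes called, with FDRs of the 7 genes between 0.0571 and 0.0796. Both of these were chosen after the data were seen.

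Grk1 (ENSMUSG00000031450, chromosome 8, 13405081 to 13421951, plus strand; all positions are GRCm38) encodes the kinase of the first shutoff step. Its levels were 95.5, 76.2 and 73.2 CPM in the 3 replicates at 5 mM and 468.5, 343.6 and 283.1 CPM at 25 mM. CPM here are counts scaled to library size with TMM factors. The lowest 25 mM replicate was well above the highest at 5 mM, and the single libraries did not overlap either, with a highest value of 134.0 CPM at 5 mM and a lowest of 173.9 at 25 mM. The fold change was 4.47 (log2 2.16, SE 0.23, FDR 0.0217). Of the other kinases of the GRK family, 0 of 5 passed an FDR of 0.05, from Grk5 at a log2 fold change of -1.44 (FDR 0.0654) to Grk4 at 0.96 (FDR 0.0992).

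The RGS9 complex speeds GTP hydrolysis by transducin. Rgs9 (ENSMUSG00000020599, chromosome 11, 109225355 to 109298129, minus strand) had 61.5, 50.6 and 38.6 CPM at 5 mM and 304.1, 193.9 and 166.0 CPM at 25 mM. Rgs9bp (ENSMUSG00000056043, chromosome 7, 35578993 to 35585582, minus strand, a gene of 1 exon) had 64.7, 41.3 and 42.3 CPM at 5 mM and 244.5, 178.6 and 152.0 CPM at 25 mM. Catalytic subunit and anchor thus rose by similar amounts, with log2 fold changes of 2.14 (SE 0.28, FDR 0.0261) and 1.96 (SE 0.26, FDR 0.0261). Their ratio per length (in TPM) was 2.63, 3.40 and 2.52 at 5 mM and 3.41, 3.01 and 3.03 at 25 mM. These ratios overlapped, and their log2 difference of 0.15 gave p = 0.3 in the exact permutation test.

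Gnb5 (ENSMUSG00000032192, chromosome 9, 75306288 to 75345876, plus strand) encodes the beta subunit that RGS9 and the other R7 proteins need for stability, and it is used in many neurons besides rods. It had 107.4, 105.9 and 101.0 CPM at 5 mM and 296.1, 231.4 and 206.0 CPM at 25 mM, a log2 fold change of 1.22 (SE 0.18, FDR 0.0302). The 5 mM replicates lay close together and all below those at 25 mM. Of its exonic bases, 248 (7.96%) overlap Gm19531 on the opposite strand, and whether counting used the strand is not given in the sources used here. The ratio of Gnb5 to Rgs9 in TPM fell from 2.60, 3.29 and 4.08 at 5 mM to 1.44, 1.75 and 1.90 at 25 mM, without overlap, by 0.96 on the log2 scale. Of the other R7 RGS proteins and anchors, 0 of 6 passed, with a median log2 fold change of -0.09 and a range from Rgs7bp at -0.22 to Rgs7 at 0.09.

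The 2 guanylate cyclases refill cGMP after light. Gucy2e (ENSMUSG00000020890, chromosome 11, 69218117 to 69237036, minus strand), the mouse gene for retGC1, had 52.7, 45.8 and 38.9 CPM at 5 mM and 245.3, 154.3 and 137.5 CPM at 25 mM. Gucy2f (ENSMUSG00000042282, chromosome X, 142081160 to 142196931, minus strand), for retGC2, had 24.2, 9.57 and 5.15 CPM at 5 mM and 152.4, 122.1 and 67.2 CPM at 25 mM. Both rose, Gucy2e by a log2 fold change of 1.97 (SE 0.25, FDR 0.0261) and Gucy2f by 3.13 (SE 0.57, FDR 0.0425). Gucy2f had the largest fold change of the 10 genes, 8.77 with a 95% interval from 3.56 to 21.6, and the widest spread between replicates. Per length, the ratio of Gucy2f to Gucy2e was 0.454, 0.207 and 0.131 at 5 mM and 0.614, 0.782 and 0.484 at 25 mM. The ratios did not overlap, with a log2 difference of 1.41 (p = 0.1, exact permutation test, the smallest possible), of 1.85 in batch 1 and 0.90 in batch 2. Of 5 other membrane cyclases, 3 were tested and 0 passed, from Npr1 at -1.83 (FDR 0.103) to Npr2 at -0.24.

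Promoter sequences from RefSeq (GRCm38.p6) were available for 7 of the 10 genes. The 250 bases before the start site are shown for both cyclases and for Guca1a, an activator of cyclase, since the cyclases rose and Guca1a did not pass the test. Capitals mark TAATCC or its reverse GGATTA, the core bound by the photoreceptor factor CRX. The windows are chrX:142196937-142197186, chr11:69237023-69237272 and chr17:47400607-47400856, all on the minus strand.
Gucy2f: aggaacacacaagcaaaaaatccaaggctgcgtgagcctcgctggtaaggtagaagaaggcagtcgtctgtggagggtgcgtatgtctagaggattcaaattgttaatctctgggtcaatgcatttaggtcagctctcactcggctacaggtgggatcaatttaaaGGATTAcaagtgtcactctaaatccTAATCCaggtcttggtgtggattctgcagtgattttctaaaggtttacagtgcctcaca
Gucy2e: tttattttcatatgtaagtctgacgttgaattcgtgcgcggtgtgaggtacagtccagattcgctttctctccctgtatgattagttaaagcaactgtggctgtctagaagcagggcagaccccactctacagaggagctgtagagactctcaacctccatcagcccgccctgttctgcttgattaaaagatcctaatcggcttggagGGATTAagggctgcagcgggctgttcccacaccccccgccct
Guca1a: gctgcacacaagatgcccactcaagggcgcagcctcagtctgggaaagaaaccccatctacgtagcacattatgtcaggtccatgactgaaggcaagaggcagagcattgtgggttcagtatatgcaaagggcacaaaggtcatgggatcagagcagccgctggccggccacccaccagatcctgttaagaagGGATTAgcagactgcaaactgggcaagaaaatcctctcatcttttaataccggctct
The core occurred 2 times in the Gucy2f window, beginning 84 and 59 bases before the start, and once in the windows of Gucy2e, Guca1a and Gnb5. Those of Grk1, Rgs9 and Slc24a1 did not hold these letters. Thus 4 of 7 windows held it, against 6.25% of 32851 promoter windows of the same length, and these 4 include Guca1a as well as genes that rose. The Gnb5 window lies before the transcript Gnb5-202 (start 75306288), while the most abundant Gnb5 transcript, Gnb5-206, starts at 75314136. TGCTGA, part of the NRL element, was in 1 of 7 windows (16.1% of all), GGGCGG in 2 (32.7%) and CACGTG in 0 (6.02%), each searched on both strands. A match is a description of these letters only.

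The exchanger gene Slc24a1 (ENSMUSG00000034452, chromosome 9, 64922861 to 64951607, minus strand) had 117.5, 89.6 and 75.2 CPM at 5 mM and 421.6, 314.9 and 316.0 CPM at 25 mM. It rose by a log2 fold change of 1.90 (SE 0.22, FDR 0.0228), with no overlap between single libraries. Batch 1 alone gave a log2 fold change of 1.99 and batch 2 alone 1.93. Cngb1, which encodes the channel subunit that binds the exchanger, had a log2 fold change of 0.69 (FDR 0.178). The ratio of Slc24a1 to Cngb1 was 1.23, 0.488 and 0.492 at 5 mM and 1.58, 1.88 and 1.13 at 25 mM in TPM. It overlapped between the groups (p = 0.2, exact permutation test). Among 8 other exchangers and genes of photoreceptor calcium handling, 2 passed as higher, Cacna1f and Cabp4, which is also in the list of calcium sensors below. The range ran from Slc24a5 at -1.09 (FDR 0.142) to Cacna1f, the rod synaptic calcium channel, at 1.58 (FDR 0.038).

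The calcium sensors are small EF-hand proteins. Rcvrn (ENSMUSG00000020907, chromosome 11, 67695326 to 67703333, plus strand) had 50.9, 76.3 and 67.7 CPM at 5 mM and 100.6, 105.0 and 133.6 CPM at 25 mM. Its log2 fold change of 0.80 (SE 0.20) had an FDR of 0.0705, and the single libraries did not overlap, with a highest of 81.8 CPM at 5 mM and a lowest of 82.7 at 25 mM. Rcvrn passed in 6 of 22 alternatives: DESeq2 (FDR 0.0175), no filter on low counts (FDR 0.0439), the 12 libraries with a batch term (FDR 0.0153), without 5 mM replicate 1 (FDR 0.0343), and the GC and length offsets without and with a replicate block (FDR 0.00495 and 0.00548). The fit of 12 libraries counts technical replicates as separate samples, although they are not independent. The ratio of Grk1 to Rcvrn, the kinase to its inhibitor, went from 0.268, 0.142 and 0.155 at 5 mM to 0.674, 0.466 and 0.301 at 25 mM in TPM, without overlap, a log2 difference of 1.33 (1.79 in batch 1 and 0.75 in batch 2).

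Guca1a (ENSMUSG00000023982, 47394558 to 47400584, minus strand) and Guca1b (ENSMUSG00000023979, 47385393 to 47392967, plus strand) lie tail to tail on chromosome 17, 1590 bases apart. Guca1a had 12.2, 35.8 and 33.2 CPM at 5 mM and 52.0, 36.7 and 51.2 CPM at 25 mM. Guca1b had 50.2, 107.9 and 103.5 CPM at 5 mM and 142.7, 109.3 and 145.8 CPM at 25 mM. In both genes 5 mM replicate 1 was far below the other replicates, and 25 mM replicate 2 was only just above the highest at 5 mM. Their log2 fold changes were 0.79 (SE 0.38, FDR 0.208) and 0.61 (SE 0.29, FDR 0.207), and without 5 mM replicate 1 they were 0.43 and 0.33. Replicate 1 was the lowest of the 5 mM replicates for all 3 sensors and the highest for the other 7 genes. The ratio of Guca1a to Gucy2e was 2.12, 7.26 and 7.82 at 5 mM and 1.92, 2.20 and 3.46 at 25 mM in TPM and overlapped (p = 0.3, exact permutation test). The ratio of Guca1b to Guca1a differed by -0.24 on the log2 scale without overlap, but by 0.15 in batch 2 alone. Among 11 other neuronal calcium sensors and calmodulins, 1 passed as higher, Cabp4, a photoreceptor synaptic protein, at 1.06 (FDR 0.0308), and the lowest was Ncs1 at -0.99 (FDR 0.0681).

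**Figure D2:**
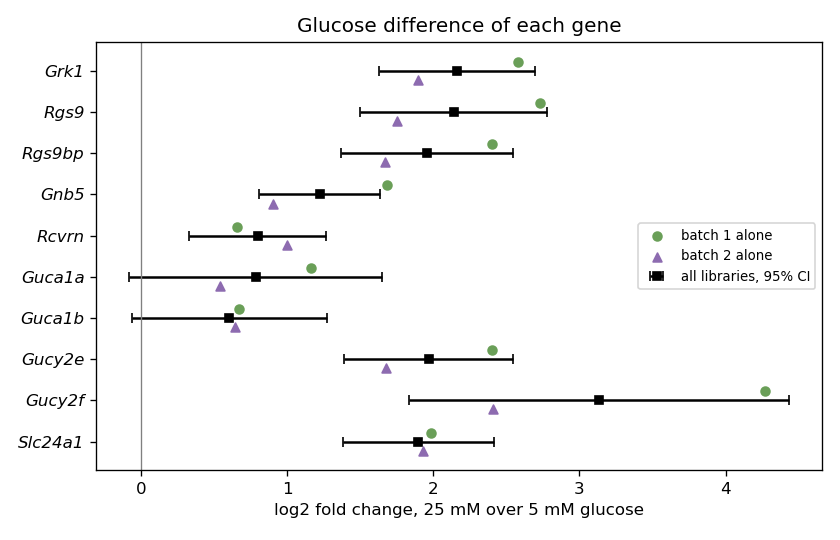
Log2 fold change of 25 mM over 5 mM glucose for each gene, with squares and 95% intervals from all libraries, circles from batch 1 alone and triangles from batch 2 alone. The intervals of Guca1a and Guca1b reach below 0, and batch 1 gave the larger value for 9 of 10 genes.

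The mRNAs of the 3 sensor genes were also short and had the highest GC content of the 10. Their longest transcripts have 1040 (Rcvrn), 873 (Guca1a) and 1668 (Guca1b) bases, against 2105 (Gnb5) to 8331 (Gucy2e) for the others. Their GC content, weighted by transcript counts, was 53.9%, 55.7% and 55.7%, against 42.0% (Gucy2f) to 52.85% (Gucy2e) for the others. For the 96.41% of tested genes with an annotated length, the median log2 fold change was 0.05 under 1000 bases and -0.07 from 1000 to 2000. It was -0.03 from 2000 to 4000, -0.04 from 4000 to 6000 and 0.05 from 6000 bases. Such medians were not computed by GC content or for single libraries. With offsets for GC content and length the sensors had log2 fold changes of 1.04, 1.21 and 1.07. The others then ran from 1.34 (Gnb5) to 2.96 (Gucy2f). All 10 members passed an FDR of 0.05 (background 6.65% higher), and 8 passed the stricter pair of thresholds (0.579%). The part of length and GC content in the difference between sensors and the other genes was not tested.

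Within batch 1 alone, 10 of 10 members did not overlap (21.4% of genes higher without overlap) and 7 passed an FDR of 0.05 (7.16%). Within batch 2 alone, 5 of 10 did not overlap (8.52%), and edgeR called 0 members and 0.0% of all genes at an FDR of 0.05. At an unadjusted p under 0.05, 8 members were higher in batch 2 (5.07%). Batch 1 gave the members a median of 2.19 on the log2 scale, and batch 2 gave 1.67. The difference between batches itself was tested as a glucose by batch term, and 0 members had an unadjusted p under 0.05 (11.8% of all genes), with FDRs from 0.518 to 0.977. The libraries of 1 biological replicate share tissue, so the p-values of this term are approximate. Over the 12 single libraries, 5 of 10 members did not overlap between concentrations, against 3.27% of genes.

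Per transcript length, in TPM, Gnb5 had the highest mean level at both concentrations, 127.2 ± 8.39 at 5 mM and 313.5 ± 78.2 at 25 mM (SD, n = 3). It was followed at 5 mM by Rcvrn (118.0), Guca1b (99.6), Guca1a (59.0), Rgs9 (39.5) and Slc24a1 (33.8), and neighbours in this order overlapped. Below them came Grk1 (21.0), Rgs9bp (14.0), Gucy2e (10.7) and Gucy2f (2.96), each without overlap with the next. At 25 mM Rgs9 (191.6) came next after Rcvrn (221.9), ahead of Guca1b (164.3), Slc24a1 (138.5), Guca1a (109.9), Grk1 (103.4), Rgs9bp (60.0) and Gucy2e (46.2), but all neighbours other than Gnb5 and Rcvrn overlapped. Gucy2f stayed lowest at 28.8 ± 12.3. These levels sum all annotated transcripts of a gene. For Gnb5 they include Gnb5-207 and Gnb5-203, of 540 and 633 bases, without an annotated coding frame. These made up 14.13% and 7.132% of Gnb5 at 5 mM and 23.01% and 10.51% at 25 mM. The main coding forms Gnb5-206 and Gnb5-202 had means of 70.21 and 24.33 TPM at 5 mM and 122.5 and 73.44 at 25 mM. Their summed means were below those of Rcvrn at both concentrations, so the first rank of Gnb5 rested on its other transcripts.

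Other rod genes were also higher at 25 mM, and bulk samples cannot tell more rod cells from more RNA per rod. The mean log2 CPM of 7 rod genes outside the list (Gnat1, Sag, Pde6b, Pde6g, Cnga1, Nrl and Nr2e3) was higher by 1.15, without overlap of replicates. These genes spread from Pde6g at 0.24 (FDR 0.693) and Gnat1 at 0.45 (FDR 0.308) to Nrl at 1.33 (FDR 0.0261), Pde6b at 1.65 (FDR 0.0217) and Cnga1 at 2.12 (FDR 0.0261), with Nr2e3 at 0.99 (FDR 0.0305) and Sag at 1.13 (FDR 0.0581). Relative to that mean, Gucy2f was higher by 2.19, Grk1 by 0.99, Rgs9 by 0.96, Gucy2e by 0.78 and Slc24a1 by 0.76, each without overlap (p = 0.1, exact permutation test, the smallest possible). Against the median of the 7 genes these differences shrank to 1.71, 0.51, 0.48, 0.30 and 0.28, and in batch 2 alone they were 1.26, 0.59, 0.38, 0.37 and 0.67. Rgs9bp was higher by 0.81 with overlap (0.33 against the median). Gnb5 differed by 0.05 with overlap, and by -0.43 against the median of the 7 genes. The sensors rose less than the rod mean, with differences between concentrations of -0.34 for Rcvrn, -0.23 for Guca1a and -0.48 for Guca1b, all with overlap. Against the median these differences were -0.82, -0.71 and -0.96. Guca1a turned to 0.16 in batch 1 alone.

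**Figure D3:**
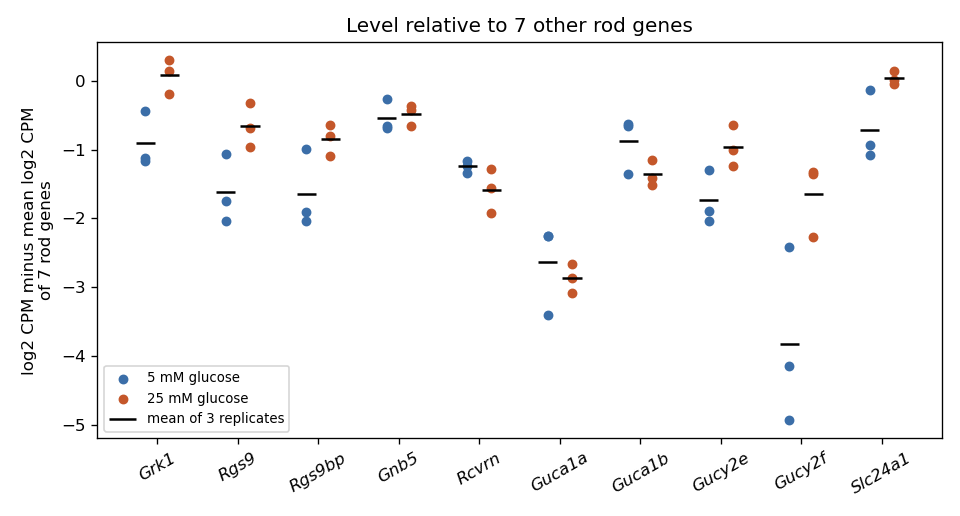
Level of each gene relative to 7 rod genes (log2 CPM minus the mean log2 CPM of those genes), with 1 point per biological replicate, 5 mM in blue, 25 mM in orange and lines at the means. Gucy2f shows the largest shift, 2.19, and Rgs9bp, Gnb5, Rcvrn, Guca1a and Guca1b overlap between concentrations.

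Of 9 rod activation genes, 4 passed as higher, with a median of 1.06, and of 7 arrestin and outer segment genes 5 passed, with a median of 1.13, from Rom1 at 0.36 to Abca4 at 1.96 (FDR 0.0217). Of 6 genes for cyclase trafficking and chaperones, 1 passed, Aipl1 at 0.92 (FDR 0.041), and the lowest was Unc119b at -0.48 (FDR 0.267). Of 11 cone counterparts, 1 passed, Opn1mw at 1.75 (FDR 0.042), and Opn1sw was at -1.01 (FDR 0.0704). Both opsins had low mean levels, 1.24 CPM at 5 mM and 4.18 at 25 mM for Opn1mw, and 2.76 and 1.36 for Opn1sw. The summed level of the 7 rod genes ran from 1346 to 2136 CPM at 5 mM and from 3005 to 3695 at 25 mM. Some marker sums of other cells were lower at 25 mM, with vascular markers from 1023 to 1770 CPM at 5 mM and 524.1 to 928.6 at 25 mM, Mueller glia from 2782 to 3921 and 1748 to 2682, amacrine cells from 251.9 to 298.2 and 121.7 to 205.5, and bipolar cells from 1319 to 1398 and 1053 to 1269. The single markers were mixed in the Mueller glia and bipolar lists, with 3 of 7 higher in each and median log2 fold changes of -0.06 and -0.04, against -1.94 for vascular and -0.92 for amacrine markers. Without Vim, a marker singled out after its values were seen, the Mueller glia sums overlapped, from 1520 to 1715 CPM at 5 mM and 1278 to 1759 at 25 mM. Of the 7 markers in each of these 4 lists, 0 passed an FDR of 0.05 and none was at 0. Microglial sums overlapped, from 82.8 to 179.5 CPM at 5 mM and 47.5 to 100.1 at 25 mM. Yet 0 of 7 microglial markers were higher, with a median log2 fold change of -1.095, and 0 passed an FDR of 0.05. Sums of cone, ganglion and horizontal cell markers overlapped too, with median log2 fold changes of 0.03, 0.17 and 0.07. Pigment epithelium markers summed to 5.78 to 7.99 CPM at 5 mM and 3.09 to 4.54 at 25 mM. The part of cell composition in the members' differences was not tested.

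Transcripts of the members were compared as well. Of 27 annotated transcripts 23 were tested, 22 had higher levels at 25 mM and 19 of them had an unadjusted p under 0.05 (7.81% of all transcripts), while 0 passed an FDR of 0.05, with FDRs from 0.192 to 0.851. In Guca1b the spliced form Guca1b-201 had a log2 fold change of 0.40 (SE 0.33), and Guca1b-202, which keeps intron 3 (773 bases, chromosome 17, 47391102 to 47391874), had 3.34 (SE 0.51, FDR 0.192). The reading frame of Guca1b-202 runs on into the intron and ends at position 47391313. The last 30 bases of exon 3 are given in lower case, followed in capitals by the next 30 bases, which are exon 4 in the spliced form and intron 3 in the other.
Guca1b-201: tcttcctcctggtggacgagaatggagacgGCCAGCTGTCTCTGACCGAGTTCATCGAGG
Guca1b-202: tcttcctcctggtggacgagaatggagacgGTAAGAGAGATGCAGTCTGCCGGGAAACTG
The level of Guca1b-202 was 4.79%, 1.10% and 0.829% of that of Guca1b-201 in the 5 mM replicates and 16.8%, 17.1% and 7.0% at 25 mM. The replicates did not overlap (log2 difference of the ratio 2.95, p = 0.1, exact permutation test, the smallest possible), but single libraries did. They ran from 0.537% to 10.9% at 5 mM and from 3.08% to 35.0% at 25 mM. The difference was 4.24 in batch 1, without overlap, and 1.47 in batch 2, with overlap. Guca1b-202 rested on 37 to 119 estimated counts per replicate at 5 mM and 402 to 824 at 25 mM.

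Gnb5-202 encodes the long form found in photoreceptors, with 42 more residues from a coding exon of 126 bases, and Gnb5-206 the short form used in other neurons. Their log2 fold changes were 1.41 (SE 0.33, FDR 0.214) and 0.61 (SE 0.17, FDR 0.222). The long form was 26.8%, 47.3% and 28.9% of the short form at 5 mM and 68.4%, 47.4% and 59.8% at 25 mM. The replicates nearly touched, the log2 difference was 0.80 (1.69 in batch 1 and -0.01 in batch 2), and single libraries overlapped. For Grk1 the retained-intron form Grk1-203 was 3.88% to 5.05% of Grk1-202 at 5 mM and 6.54% to 8.16% at 25 mM, but batch 2 alone gave a log2 difference of -0.42. For Rgs9 the main transcript was Rgs9-204, the short retinal form. The longer form Rgs9-201, known from striatum, was at 0.0595 TPM at 5 mM and 0.111 at 25 mM. Rgs9-202, a shorter transcript, ends near the end of Rgs9-201, at 109225361 and 109225355. It had 1.38 TPM at 5 mM and 7.32 at 25 mM, without overlap of replicates (log2 fold change 2.21, FDR 0.198). The second transcripts of Rgs9 and Gucy2e overlapped between concentrations relative to the first (p = 0.2 and p = 0.7, exact permutation tests).

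**Figure D4:**
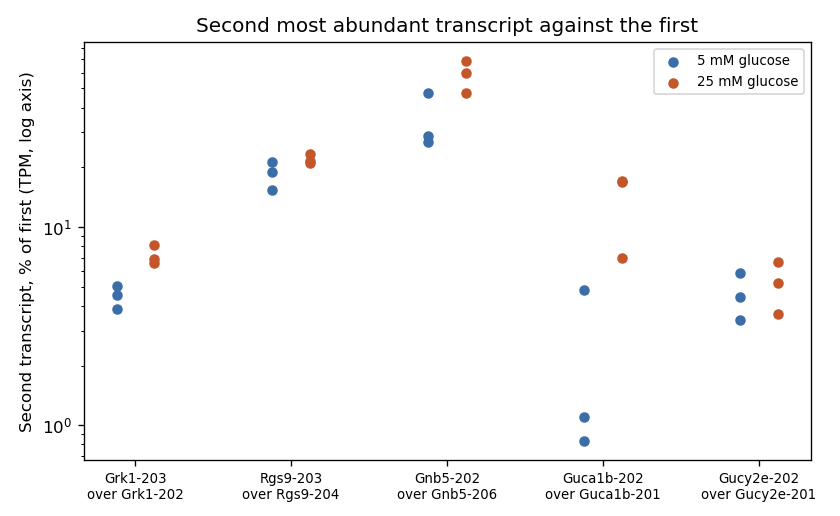
Level of the second most abundant transcript as a percentage of the most abundant, in TPM (log axis), for the 5 genes compared, with 1 point per biological replicate, 5 mM in blue and 25 mM in orange. Guca1b shows the widest separation, from at most 4.79% at 5 mM to at least 7.0% at 25 mM.

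Over the 12 libraries the 7 genes with an FDR under 0.05 followed each other closely, with Pearson correlations of log2 CPM from 0.946 to 0.993. These are given as a description because the libraries share glucose and batch. Guca1a and Guca1b correlated at 0.963 with each other, and Gucy2f with Guca1b at 0.433. The 5 genes outside the list with the highest mean correlation to the 10 were Ppm1n (0.902), Sntg2 (0.899), Cds1 (0.899), Pde6b (0.898) and Glb1l2 (0.897), each over 12 libraries. Their log2 fold changes ran from 1.15 (Cds1) to 2.45 (Glb1l2).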

How the data were processed

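RNA was measured in 12 libraries made from total RNA of retinal explants. The authors deposited estimated counts (expected counts) per gene and per transcript, not normalized between libraries; the counting tool and annotation are not given in the sources used here, and GRCm38 is the build in the submitters' processing notes. Gene values divided by transcript values had library medians of 0.979 to 1.014 over 538 genes of 1 transcript. Whether the gene table is length-adjusted was not tested. Technical replicates were summed and rounded, filtered with filterByExpr, scaled by TMM and tested by quasi-likelihood in edgeR 4.0.16 (version 3 style, R 4.3.3), with Benjamini-Hochberg adjustment over 21061 genes; log2 CPM used a prior count of 2. Ratios and relative levels were compared with two-sided exact permutation tests, over 7 ratios between genes and without adjustment. TPM came from the transcript table and GENCODE M21 lengths, which also gave symbols to 48766 of 53707 genes (90.8%). Library totals were 14815285 counts or more, the counting error of single genes and transcripts was not computed, and amplified reads are not independent molecules. DESeq2 1.42.0, limma-voom 3.58.1, other filters and scalings, single batches, left-out replicates, a replicate block and GC and length offsets were alternatives. Only the main edgeR test was also run on simulated data, with results not given here. Members and lists were chosen with earlier results of these data known. Genes named were the 10 members, 7 rod genes, the highest and lowest tested gene of each list, the 5 genes most like the members and the 2 most abundant transcripts of each member. Cngb1 is the partner in 1 of the ratios, and Rgs9-201, Rgs9-202 and the promoter motifs were chosen after the data were seen. Results of some items are not reported here, and the rod means, sums and lists were computed without them.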

Additional observations from a re-analysis of the deposited data

Results flagged for a closer look

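Among the 20 groups of 6 libraries (10 genes at 2 concentrations), 2 held a library far from the other 5, where chance gives about 1 in 20. Both were the batch 2 library of 5 mM replicate 1, which was the highest at 5 mM for Grk1 (134.0 CPM) and for Gucy2f (39.5 CPM). The chance rate assumes independent libraries and groups. Technical replicates share tissue, and Grk1 and Gucy2f correlated at 0.963 over the libraries, so the rate is only a rough guide.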

How the results depend on the processing

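At an FDR under 0.05, 7 members were called in the analysis as reported, 0 in batch 2 alone, 0 without either pair of libraries chosen after seeing the data, and 0 to 8 when 1 biological replicate was left out; where 0 members were called, 0 to 2 of all genes were. At a fold over 2 with an FDR under 0.01 the count was 0 as reported (0.0% of all genes higher), 7 with DESeq2 (2.98%), 7 with no filter on low counts (0.518%), 4 with the 12 libraries as separate samples (0.55%), 6 in batch 1 alone (0.722%), 8 with offsets for GC content and length (0.579%), 9 with the offsets and the replicate block (1.4%), and 0 to 5 with 1 replicate left out (0.0% to 0.346%). The median log2 fold change of 1.93 became 1.43 without the second library of 25 mM replicate 1 and the first of 25 mM replicate 2, and ran from 1.72 to 2.08 with 1 replicate left out. In batch 2 alone the log2 ratio of Guca1b to Guca1a turned to 0.15 and that of Rgs9 to Rgs9bp to -0.032. Relative to rod genes, Gnb5 (0.05 as reported) turned to -0.43 against their median and to -0.34 in batch 2, and ran from -0.021 to 0.19 with 1 replicate left out. Guca1a turned to 0.16 in batch 1. Of 65 tested pathway list genes, 13 were called in either direction as reported (417 of 21061 genes), 24 with DESeq2 (3489 of 21061) and 32 without 5 mM replicate 1 (5845 of 21945). The cause of these changes was not tested. With the replicate block 7 members were called and 990 genes in all, against 417 without it. Same-numbered replicates deviated from their group means with correlations of -0.01, -0.45 and 0.28 over 21061 genes, so the numbers were not taken to pair the samples.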
